A study of Mus musculus with 4 samples.

Results

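The barcodes described here are keratinocyte barcodes from mouse skin in which ΔNp63 had been targeted for deletion, but in which transcripts of Trp63, the gene that encodes p63, were still counted. They were taken from the 2 libraries of ablated skin, each apart, by 4 criteria: at least 3000 gene UMIs (unique molecular identifiers, each counting 1 captured RNA molecule) with at most 15% of them mitochondrial, at least 5 UMIs of Krt5 and Krt14 together, no UMI of the immune gene Ptprc, and at least 3 UMIs of Trp63. These criteria were met by 1243 barcodes at 1 day and 739 at 1 week, 1982 of the 109216 barcodes in the 4 libraries. They are called Trp63-retaining barcodes below. They were chosen by their measured Trp63 UMIs, so their Trp63 level is a description of the choice and not a finding.

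The study profiled skin cells by droplet single-cell RNA sequencing, with 1 ablated and 1 control library at 1 day and the same at 1 week. Ablated mice carried the genotype DNp63fl/fl;K14-CreT2, in which the K14 promoter, active in basal keratinocytes and their follicular counterparts, drives a tamoxifen-inducible Cre recombinase against floxed ΔNp63 alleles. Control mice were DNp63fl/fl without the Cre. Both genotypes received tamoxifen by oral gavage at 200 mg/kg daily for 5 days, so the control animals had the drug and the floxed alleles too. The mice were between 2 and 17 months old, with males and females in equal parts, and the skin was digested in 0.25% trypsin, either overnight in the cold or warm. The labels do not say which animals, how many of them, or which digestion went into a library. A 3′ kit (v3.1) was used at 1 day and a 5′ kit (v1.1) at 1 week, so time and chemistry cannot be told apart and levels were compared only within a time. With 1 library in each group there is no replicate error and no test: every interval below is a 95% exact interval that covers counting error only, and differences between libraries may be differences between animals.

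p63 is the member of the p53 family of transcription factors that stratified epithelia depend on, and its ΔN isoforms, which start from an internal promoter, are the main form in basal keratinocytes. Basal cells sit on the basement membrane through hemidesmosomes, renew the tissue and, when they leave that layer, switch from Krt5, Krt14 and Krt15 to the spinous keratins Krt1 and Krt10 and later to proteins of the cornified envelope. p63 is known for binding near genes of adhesion and basal identity and for restraining p53-like growth arrest. The gene counts do not separate the ΔN from the TA isoforms, nor transcripts of intact from those of recombined alleles, so a Trp63 UMI does not say which allele or isoform it came from.

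The promoters of a basal keratin and of a growth arrest gene show the kind of element that p53-family proteins bind, and are printed because both genes recur below. The sequences are the 250 bases before the annotated start in the RefSeq table for GRCm38.p6, read 5′ to 3′ on the gene's strand, with matches to the p53-family decamer motif (10 bases, searched on both strands, its own reverse complement) in capitals. Krt5, which encodes the basal partner of Krt14, lies on the minus strand at chr15:101712906-101713155 and has 1 match, 95 to 86 bases before the start. Cdkn1a, which encodes the cell cycle inhibitor p21, lies on the plus strand at chr17:29090729-29090978 and has 2 matches, 73 to 64 and 51 to 42 bases before the start.
Krt5: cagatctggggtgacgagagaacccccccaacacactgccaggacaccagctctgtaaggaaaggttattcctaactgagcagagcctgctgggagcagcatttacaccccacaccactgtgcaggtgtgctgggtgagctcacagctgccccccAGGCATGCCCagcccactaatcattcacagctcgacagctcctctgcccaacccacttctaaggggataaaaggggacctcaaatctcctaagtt
Cdkn1a: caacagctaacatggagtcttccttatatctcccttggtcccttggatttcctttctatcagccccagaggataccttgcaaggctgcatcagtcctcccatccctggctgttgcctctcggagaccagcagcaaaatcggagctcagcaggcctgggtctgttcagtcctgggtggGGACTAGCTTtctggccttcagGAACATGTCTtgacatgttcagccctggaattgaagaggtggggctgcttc
The same motif was matched in 2341 of the 32851 windows of this length in the table (7.13%), so a match is a description of these letters and not a binding site. Of the 16 genes of the basal and hemidesmosome list 8 were in the table and 1 had a match, and of the 25 terminal differentiation genes 24 were in it and 3 had one.

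Trp63-retaining barcodes made up 8.39% (7.94 to 8.84) of the 14823 keratinocyte barcodes of the ablated library at 1 day and 22.3% (20.9 to 23.7) of 3315 at 1 week. In the control libraries 46.7% (45.9 to 47.4) of 17198 and 52.2% (51.0 to 53.3) of 6947 keratinocyte barcodes reached 3 Trp63 UMIs. A large part of the ablated keratinocytes had no Trp63 UMI at all, 9627 barcodes (64.9%) at 1 day and 1609 (48.5%) at 1 week, against 2823 (16.4%) and 865 (12.5%) in the controls. Depth enters these shares directly, because deeper barcodes reach 3 UMIs more easily. With every barcode thinned to 3000 UMIs, 2.88% of ablated against 18.6% of control barcodes had 3 or more at 1 day, and 6.30% against 19.6% at 1 week. At each time the ablated share was below the control share on both scales.

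**Figure D1:**
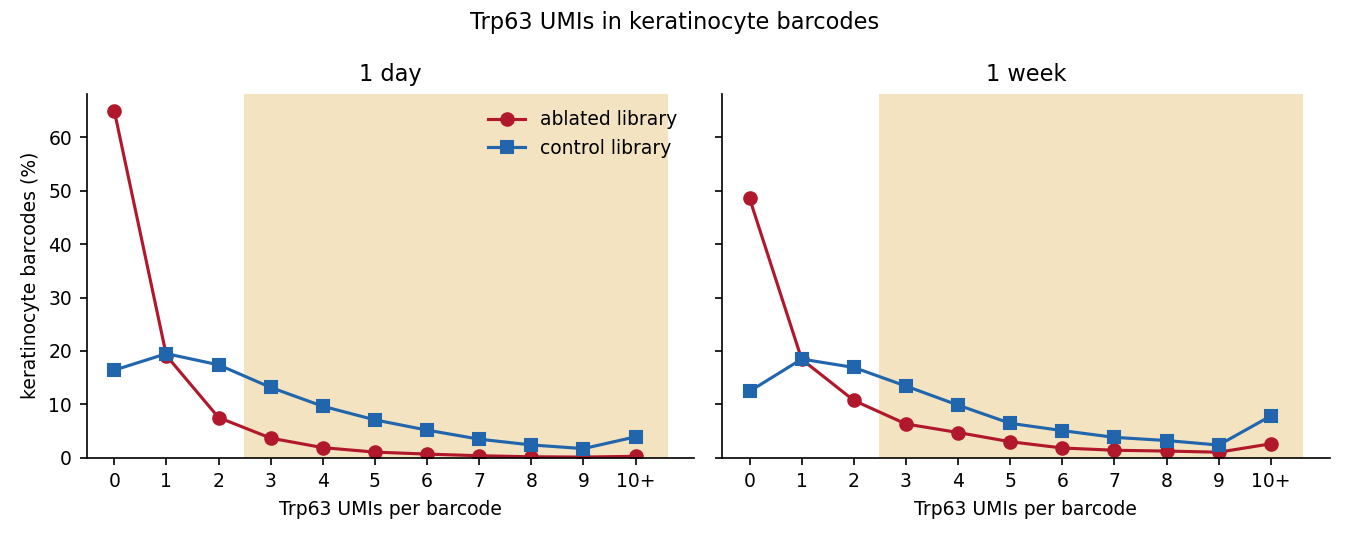
Percent of keratinocyte barcodes (vertical axis) by Trp63 UMIs in the barcode (horizontal axis, 0 to 10 or more) in the ablated (red circles) and control (blue squares) libraries at 1 day and 1 week; the shaded band marks 3 or more. Ablated barcodes pile up at 0, with 64.9% at 1 day and 48.5% at 1 week, and the members in the band are the thin tail of that distribution.

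Within the Trp63-retaining barcodes many sat close to the minimum of Trp63 UMIs, more so at 1 day than at 1 week. At 1 day 547 of the 1243 (44.0%) sat at exactly 3, 413 had at least 5 and 42 at least 10, with a median of 4 and a highest value of 23. At 1 week 210 of the 739 (28.4%) sat at exactly 3, 372 had at least 5 and 87 at least 10, with a median of 5 and a highest value of 31. Control barcodes chosen in the same way had a median of 5 at both times, with 28.2% and 25.8% at exactly 3. Members were deep, at a median of 6961 and 10402 gene UMIs against 4800 and 7518 over all passing barcodes of their libraries, so the gene comparisons with Trp63-zero and control barcodes use pairs matched for depth within 10%.

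Free RNA can add UMIs to a droplet whose cell does not make the transcript. Barcodes that carried the immune gene Ptprc (at least 2 UMIs) and under 5 keratin UMIs were used as cells that should lack Trp63. In the ablated libraries 1 of 40 of them (2.5%, median 4467.5 UMIs) reached 3 Trp63 UMIs at 1 day and 0 of 49 (up to 7.25%, median 6496 UMIs) at 1 week. In the controls the counts were 8 of 40 (median 4435 UMIs) and 3 of 74 (4.05%, median 4559.5 UMIs). Without the limit on keratin UMIs, which also removes barcodes that carry keratinocyte RNA, 9 of 115 Ptprc barcodes (7.83%) reached 3 Trp63 UMIs in ablated skin at 1 day and 11 of 92 (12.0%) at 1 week, with 94 of 209 (45.0%) and 71 of 175 (40.6%) in the controls. At 1 day that share is close to the member share of 8.39%, and how many members carry Trp63 only as free RNA was not tested.

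Markers of other cell types were summed in the members and in the matched barcodes. The summed level of 12 T cell genes, in CPM (UMIs per 1000000 UMIs of the summed barcodes), was 25.7 in members at 1 day and 31.7 at 1 week, 25.05 and 24.2 in Trp63-zero barcodes and 40.9 and 58.6 in control barcodes. Endothelial genes (7 genes) summed to 3.85 and 6.28 in members, 1.26 and 6.76 in Trp63-zero barcodes and 1.44 and 11.2 in control barcodes. For Merkel cells, the Krt8-positive touch receptor cells of the epidermis, the 7 markers other than simple keratins summed to 1.06 and 0.831 CPM in members, with 5 and 6 of the 7 at 0, and to 0.580 and 4.41 in Trp63-zero and 0.0901 and 1.68 in control barcodes. Genes of Langerhans and myeloid cells (13 genes) summed to 1873 and 1408 in members, 2215 and 1870 in Trp63-zero barcodes and 1272 and 1074 in control barcodes. Melanocyte genes (9 genes) summed to 21.8 and 62.0 in members against 14.3 and 26.4 in Trp63-zero barcodes and 11.7 and 30.9 in control ones. Fibroblast genes (9 genes) summed to 60.1 and 113 against 35.6 and 68.3 and, in control barcodes, 55.3 and 133. Smooth muscle and pericyte genes (8 genes) summed to 54.1 and 108 against 49.3 and 142 (control 59.3 and 76.3), and neural genes (6 genes) to 1.64 and 11.4 against 0.870 and 3.66 (control 0.721 and 11.8). The smooth muscle list shares Notch3 with the spinous list below, and its sums hide single genes. Against control at 1 day 2 of 4 measured genes were past 2-fold lower and none higher, Tagln (0.631 against 10.8 CPM) and Acta2 (0.721 against 9.46). Against Trp63-zero barcodes at 1 week 4 of 6 were lower, among them Des (0.185 against 10.8), and 1 higher. Of 3 measured melanocyte genes at 1 week, 2 were past 2-fold higher in members and none lower. This held against Trp63-zero barcodes (median log2 2.01) and against control (1.60). The 1 measured neural gene at 1 week was past 2-fold higher than in Trp63-zero barcodes (log2 2.31) and within 2-fold of control (0.49). The part of other cell types in the results was not tested. The mitochondrial percent was close in members (4.89 and 1.92), Trp63-zero barcodes (4.36 and 1.72) and control barcodes (4.47 and 1.45). The ablated and control libraries shared 299 barcode sequences at 1 day and 661 at 1 week, and 12 and 21 members had a barcode that was also present in the control library of their time.

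The first comparison set the Trp63-retaining barcodes against depth-matched barcodes of the same library with no Trp63 UMI, which asks how keratinocytes from the same ablated skin differ with the transcript present. Members had more RNA of adhesion and basal genes, of hair follicle bulge genes and of several Wnt pathway genes, and less of cornified envelope genes, of 2 of 4 wound keratins and of several genes that are high in ablated skin. All of this described 1220 pairs at 1 day and 739 at 1 week. A gene was counted as past 2-fold when its log2 ratio passed 1 in either direction and it had at least 100 UMIs over both sums. At 1 day 442 genes were past 2-fold higher and 166 lower, together 6.99% of 8700. The counts at 1 week were 700 and 528, together 12.5% of 9839. The higher genes were 5.08% of those measured at 1 day and 7.11% at 1 week, and the lower genes 1.91% and 5.37%. The rule that chose the members lies on this same contrast, so these shares are read only as the background for the lists. All gene lists were set with earlier results of these data known, so their counts and medians are descriptions and no independent evidence. The split by direction depended on the scaling: with TMM factors, which shift the median log2 ratio of all genes by -0.18 and -0.20, 49.6% instead of 72.7% of the genes past 2-fold were higher at 1 day and 39.7% instead of 57.0% at 1 week. Higher genes were also the minority at 1 week without the deepest 10% and other-lineage barcodes (45.7%), without depth matching (47.3%), with the mean CPM per barcode (47.7%) and with a minimum of 300 UMIs per gene (47.4%). 

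Genes that hold basal cells to the basement membrane were higher in the members. Of 15 measured genes of the basal and hemidesmosome list, 6 were past 2-fold higher and none lower at 1 day (median log2 0.79, over all genes 0.13), and 10 were higher and none lower at 1 week (1.36, over all genes 0.19). Col17a1, the collagen XVII of the hemidesmosome, stood at 528 CPM in members and 156 in Trp63-zero barcodes at 1 day (log2 1.76, 1.68 to 1.84). At 1 week it stood at 496 and 109 (log2 2.18, 2.09 to 2.28). Dst, which encodes the hemidesmosomal linker BP230 among its products, was at 393 against 105 at 1 day and at 520 against 119 at 1 week. The anchoring fibril collagen Col7a1 was at 13.4 against 3.97 and at 28.2 against 3.66. Itgb4, the β4 integrin, lay just inside 2-fold at 1 day (74.5 against 37.8, log2 0.98) and past it at 1 week (227 against 62.0, log2 1.88), while its partner Itga6 stayed within 2-fold at both times (log2 0.50 and 0.59). Itga3 and Lamb3, a laminin receptor subunit and a laminin-332 chain, were past 2-fold at both times. Krt15, a keratin of basal and follicle stem cells, was at 1812 against 828 at 1 day (log2 1.13) and at 3331 against 1169 at 1 week (log2 1.51). Thbs1, a matrix glycoprotein of the list, was at 826 against 831 and at 1024 against 868, so not all members of the list followed.

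Other genes described as p63 targets were divided. Of 25 measured, 7 were past 2-fold higher and none lower at 1 day (median 0.03), and 6 higher and 1 lower at 1 week (median 0.20). The Notch ligands Jag1 (73.7 against 26.9, then 92.3 against 39.4) and Jag2 (32.4 against 9.48, then 68.3 against 18.5) were among the higher ones at both times, as was the atypical cadherin gene Fat2 (40.2 against 9.48 at 1 week). Igfbp3, a binding protein for insulin-like growth factors, was at 265 against 115 at 1 day and at 31.0 against 9.76 at 1 week. The immune (Ptprc) barcodes of the ablated libraries held 214 and 0 CPM of it. The transcription factor gene Grhl3, which acts in barrier formation, was lower in members, at 60.2 against 118 at 1 day and past 2-fold at 58.2 against 173 at 1 week. Perp (log2 -0.38 and -0.51), a desmosome gene, and Sfn (-0.09 and -0.14), which encodes stratifin, an epithelial adaptor protein, were within 2-fold. Trp73, another gene of the p53 family, was at 9.61 against 0.563 CPM at 1 week, where the second value rests on few UMIs.

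p53 targets showed no common direction. Of 14 and 16 measured genes of that list, 2 were past 2-fold higher and none lower at 1 day, and 1 was higher and 1 lower at 1 week, with medians of 0.02 and 0.08. Cdkn1a stood at 925 CPM in members and 1358 in Trp63-zero barcodes at 1 day (log2 -0.55), and at 571 and 980 at 1 week (log2 -0.78). Phlda3, a p53-induced inhibitor of Akt, went the other way, with 68.4 against 31.5 and 144 against 61.3. The immune barcodes of the ablated libraries held 1233 and 1543 CPM of Cdkn1a, above the members' own level, and whether these are free RNA or the immune cells' own transcripts was not tested.

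Genes of the hair follicle bulge, the niche of the follicle's stem cells, were higher in the members. Of 15 measured, 9 were past 2-fold higher and none lower at 1 day, and at 1 week 11 of 16 were higher and 1 lower, with a median log2 of 1.26 at both times. Fst, which encodes the activin antagonist follistatin, was at 938 CPM in members and 212 in Trp63-zero barcodes at 1 day, and at 816 and 160.5 at 1 week. The matrix gene Postn was at 295 against 105 and at 674 against 164. Sox9, a transcription factor of follicle stem cells, was at 651 against 271 (log2 1.26) and at 684 against 398 (log2 0.78), and Cd34 stayed within 2-fold at both times (0.76 and 0.92). The gene lower at 1 week was Fgf1 (log2 -0.61 and -1.16), a growth factor. Upper follicle genes did not go along: of 12, 3 were past 2-fold higher and 1 lower at 1 day, whereas at 1 week 5 were lower and 1 higher. Krt79, a keratin of the infundibulum, was at 530.2 against 461 at 1 day and at 1274 against 2838 at 1 week. Sebaceous gland genes had 0 of 8 past 2-fold at 1 day and 8 of 11 lower at 1 week, among them the desaturase Scd1 with 155 against 623.

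The Wnt list had 6 of 16 measured genes past 2-fold higher at 1 day and 10 of 21 at 1 week, with none lower (medians 0.72 and 0.81). The receptor gene Fzd2 was among them at both times (17.5 against 6.67, then 56.7 against 13.0). At 1 week they also included the ligand Wnt6 (11.8 against 4.79) and the secreted inhibitor Wif1 (19.5 against 2.82), which were both under the minimum of 100 UMIs at 1 day, so ligand, receptor and inhibitor lay on the same side. Of the Notch list, 2 of 10 were past 2-fold higher at 1 day, with a median of 0.13 against 0.13 over all genes, and 6 of 12 at 1 week (median 0.65), with none lower. The glycosyltransferase Lfng, which modifies Notch receptors, was at 11.8 against 3.94 at 1 week and under the minimum at 1 day, and the receptor gene Notch1 was at 96.7 against 56.3 and at 108 against 40.8. Cell cycle genes had 1 of 30 past 2-fold at 1 day and 8 of 35 at 1 week, all higher, with medians of 0.43 and 0.80. Mki67, which marks cycling cells, was at 58.9 against 38.3 (log2 0.62) and at 221 against 104 (log2 1.09). That difference went with depth: in pairs under 10000 UMIs the Mki67 log2 ratio was -0.10 at 1 day and -0.55 at 1 week, and in pairs of at least 10000 it was 1.33 and 1.26.

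**Figure D2:**
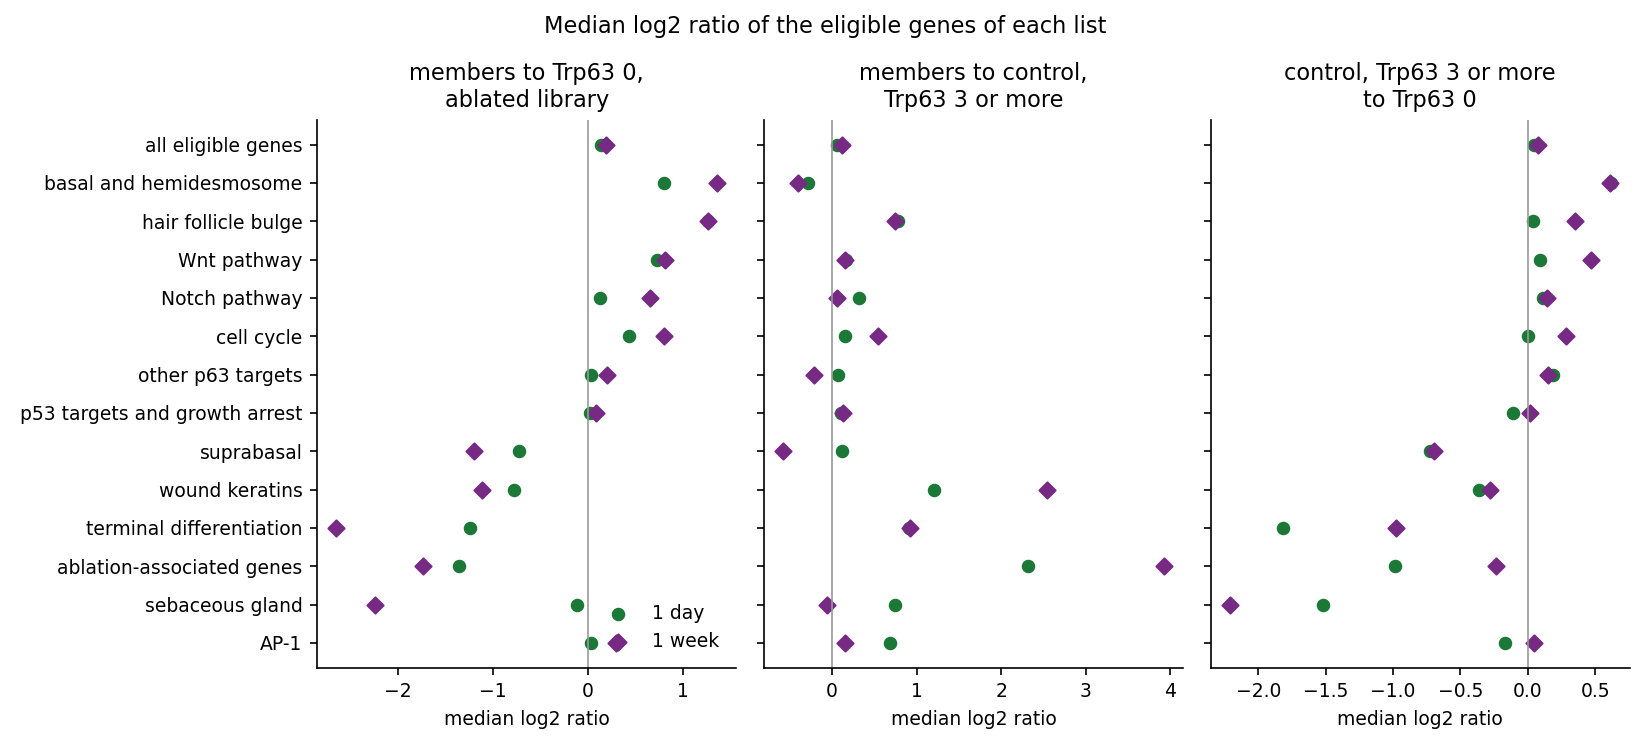
Median log2 ratio of each gene list and of all measured genes (horizontal axis) for members over Trp63-zero barcodes, members over control barcodes, and control barcodes with Trp63 over control barcodes without, at 1 day (green circles) and 1 week (purple diamonds). In the first panel the basal list lies at 0.79 and 1.36 and terminal differentiation at -1.24 and -2.65; in the second the list of genes high in ablated skin lies at 2.32 and 3.93.

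Genes of the cornified envelope and granular layer were lower in the members. Of 23 measured terminal differentiation genes 19 were past 2-fold lower and none higher at 1 day (median -1.24), and of 24 at 1 week 23 were lower and 1 higher (median -2.65). Lor, the loricrin of the envelope, stood at 196 CPM in members and 862 in Trp63-zero barcodes at 1 day, and at 388 and 1266 at 1 week, where the direction turned in barcodes with at least 3 Krt79 UMIs and no Cd34 or Lhx2 UMI, called Krt79-marked below (491 against 256). Flg, the filaggrin precursor, was at 77.3 against 183 and at 26.3 against 547. Klk7, a protease of corneocyte shedding, was at 1761 against 3501 and at 591 against 2995. The exception at 1 week was the transglutaminase Tgm3, at 17.3 against 5.63. Several of the lowest genes were close copies of one another in the Lce family, such as Lce1m at 17.9 against 479.7 at 1 day and 7.95 against 130 at 1 week, and reads shared between such copies make the value of each uncertain. Of the spinous list 1 of 13 genes was past 2-fold lower at 1 day (median -0.73), and 7 of 13 were lower and 1 higher at 1 week (median -1.20). Krt10 was at 4152 against 7487 and at 915 against 2104, and Krt1 at 1017 against 1985 and at 995 against 1731. Immune barcodes of the ablated library held 6887 CPM of Krt10 and 316 of Lor at 1 day, and 1728 and 1608 at 1 week, above the members' level of both genes each time.

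The members also held less RNA of the genes that are high in ablated skin, a list set with earlier results of these data known and therefore no independent evidence of its direction. Of its 14 genes 10 were past 2-fold lower at 1 day (median -1.35) and 9 at 1 week (median -1.73), with none higher. Krt8, a keratin of simple epithelia that interfollicular keratinocytes normally lack, was at 291 CPM against 601 at 1 day (log2 -1.05, -1.11 to -0.98) and at 258 against 475 at 1 week (log2 -0.88, -0.95 to -0.82). Its partner Krt18 was at 31.8 against 48.7 and at 47.6 against 70.6. Slpi, a secreted protease inhibitor, was at 179.8 against 395 and at 78.99 against 238 (but at 234 against 162 in Krt79-marked barcodes at 1 week), and the cytokine Il18 at 13.3 against 44.4 and at 14.97 against 59.3. The alarmin Tslp differed between the times, at 107 against 256 at 1 day and 229 against 167 at 1 week, where the log2 ratio was -0.14 in pairs under 10000 UMIs. The wound keratin genes Krt6b and Krt16, which keratinocytes switch on after injury, were past 2-fold lower at both times. Krt16 stood at 1563 against 3341 and at 1891 against 4749, and Krt6b at 108 against 492 and at 977 against 2749.9, while Krt6a and Krt17 stayed within 2-fold. The split between the near-identical Krt6a and Krt6b is uncertain. At 1 day the immune barcodes of this library held 168 CPM of Slpi, 1345 of Krt16 and 132 of Krt8, so the members' Slpi and Krt16 lay near the level in those barcodes. At 1 week the immune barcodes held 38.0 CPM of Slpi, 62.4 of Krt16 and 5.42 of Krt8, below the members' level of each over all depths. For Slpi this did not hold in the depth window of the Trp63 classes below. There, members held 22.7 CPM with 3 to 4 Trp63 UMIs and 2.44 with 5 or more. Krt16 (445 and 433) and Krt8 (17.6 and 168) stayed above the immune level in that window. For Il18 the immune barcodes held 40.8 at 1 day and 130.2 at 1 week, above the members' level both times. Those of the control libraries held 38.3 and 62.6 CPM of Il18. Whether this Il18 is free RNA or the immune cells' own transcripts was not tested.

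Inflammatory mediators divided within the list. Of 23 measured genes, 5 were past 2-fold higher and 8 lower at each time, with medians of -0.32 and -0.14. Ccl2, a chemokine for monocytes, was at 198 CPM in members and 16.5 in Trp63-zero barcodes at 1 day (log2 3.58, 3.36 to 3.82). At 1 week it was at 243 and 38.3 (log2 2.66, 2.51 to 2.82). The immune barcodes of the ablated libraries held 10.2 CPM of Ccl2 at 1 day and 138 at 1 week. The second value lies above the Trp63-zero level, and its part in the difference was not tested. Icam1, an adhesion molecule for leukocytes, was at 96.2 against 32.7 and at 101 against 37.7. On the other side, the calprotectin genes S100a8 and S100a9 were lower at both times, S100a9 at 3.56 against 29.4 and at 44.0 against 186. The stress and dissociation list had 0 of 19 genes past 2-fold at 1 day and 1 of 19 at 1 week, and the AP-1 list 0 of 8 at both times.

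**Figure D3:**
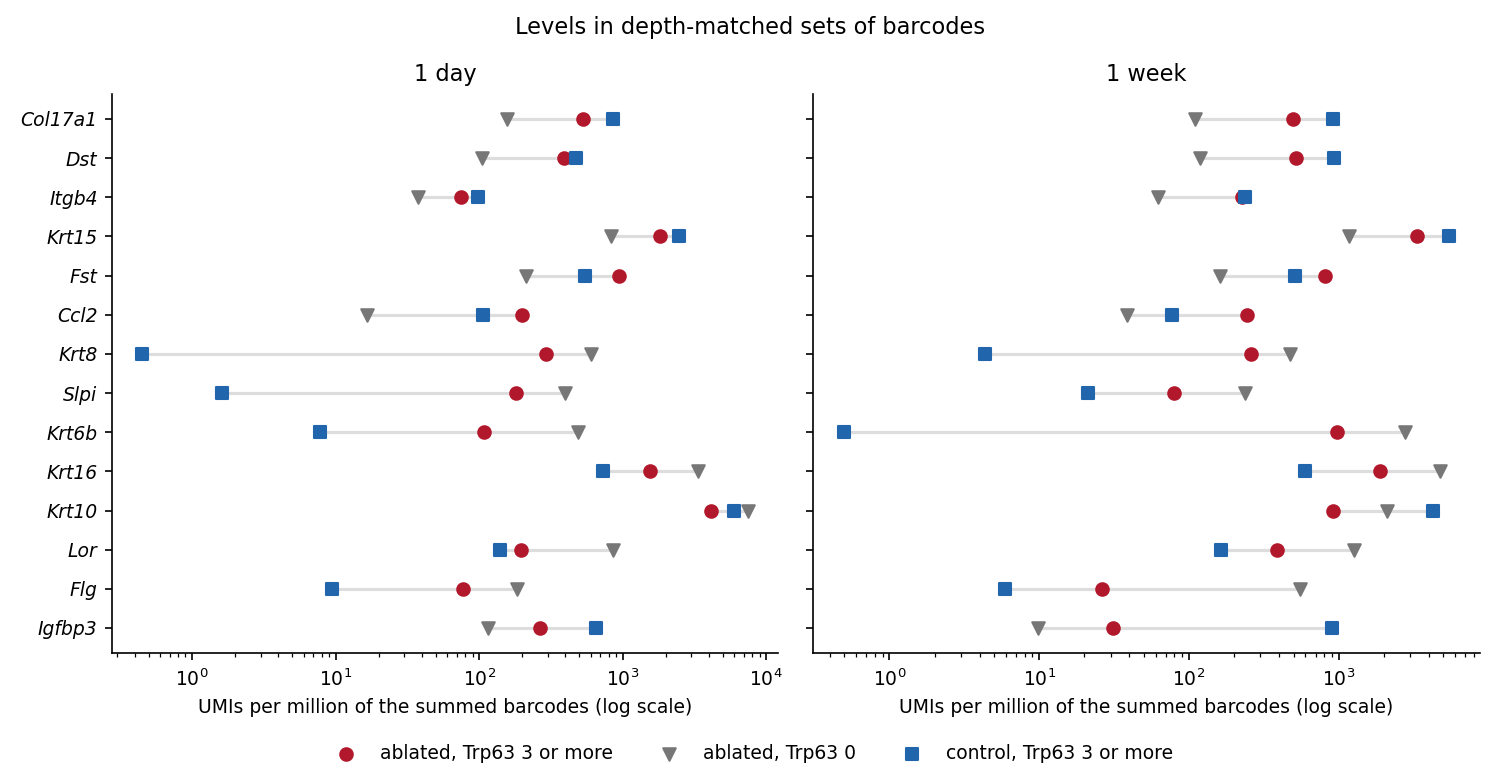
Levels of 14 genes (CPM, log axis) in the members (red circles), depth-matched Trp63-zero barcodes of the same library (grey triangles) and control barcodes with Trp63 (blue squares), at 1 day and 1 week; each grey line spans the 3 values of a gene. For Col17a1 and Dst the members lie between the other sets, for Krt8 they lie far above control barcodes and below Trp63-zero barcodes, and for Ccl2 they lie above both.

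Among the 8302 genes measured at both times, excluding the selection genes, the log2 ratios of members over Trp63-zero barcodes at 1 day and 1 week had a Pearson correlation of 0.79 and a Spearman correlation of 0.77 across genes, which are not independent replicates. Of these genes 424 were past 2-fold higher at 1 day and 436 at 1 week, and 242 at both, which is 57.1% of the first set and 55.5% of the second. Lower genes numbered 147 and 435, with 126 at both (85.7% and 29.0%). The genes most like Trp63 were ranked by the lower of their 2 log2 ratios. Ackr4, a scavenging chemokine receptor, led that order at 10.5 against 1.06 and 33.0 against 3.098 CPM. Next came Megf6 (8.66 against 1.06, then 31.7 against 1.60), Ccl1 (12.2 against 1.55, then 10.8 against 0.563) and Snai2 (43.6 against 6.58, then 50.7 against 7.23). Snai2 encodes the transcription factor Slug and Ccl1 is a chemokine. Some of these genes reached the minimum of UMIs through the members. They include Ackr4 (109 against 11 UMIs) and Megf6 (90 against 11) at 1 day and Ccl1 (117 against 6) at 1 week. The order also rests on the split that chose the members, so it is a description and no independent evidence. Ccl2, Vsnl1, Krt24, Smoc2, Robo2 and Dzip1l made up the rest of the 10. In control skin the likeness did not hold for all of them. Between control barcodes with and without Trp63, Ccl2 had log2 ratios of 0.49 and -1.04, and Krt24 of -0.14 at 1 day. Ccl1 had ratios of -1.10 and -2.80, but its 1 week value was under the minimum of UMIs for a gene. No direction in control skin is therefore read for Ccl1. The genes most opposed to Trp63 were mainly Lce genes, with Rptn and Serpinb3a. Of the 10 genes with Trp63, 7 were in the promoter table and none of their windows held the motif shown above for Krt5, and the same held for all 10 genes opposed to it.

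**Figure D4:**
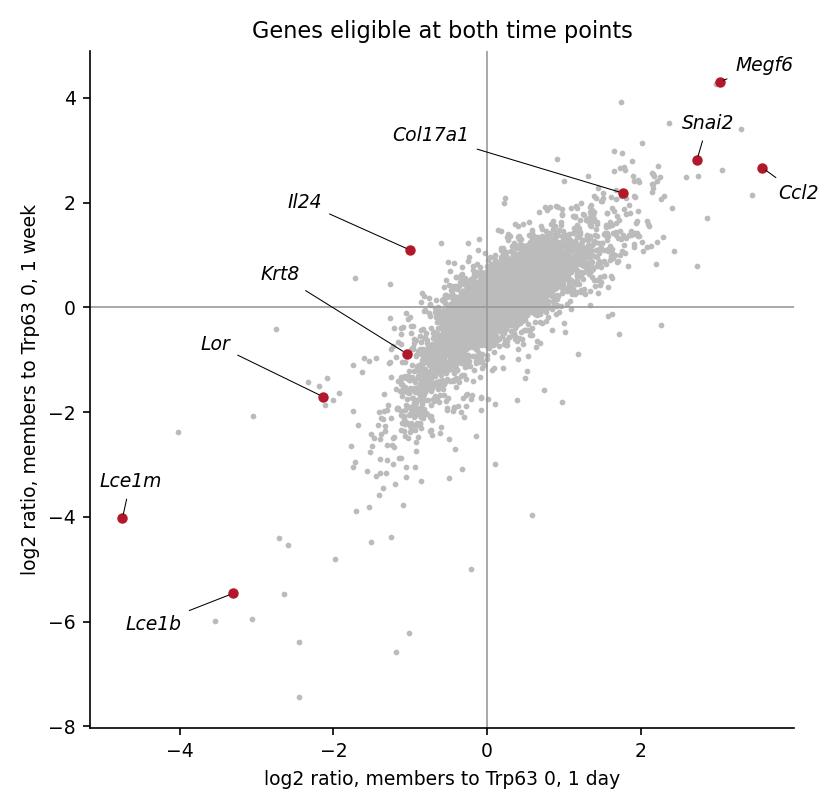
Log2 ratio of members over Trp63-zero barcodes at 1 day (horizontal axis) and 1 week (vertical axis) for 8302 genes measured at both times, with 9 genes named. The points run along the diagonal with a Pearson correlation of 0.79; Il24 is past 2-fold in opposite directions.

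The same contrast in the controls shows what the presence of Trp63 UMIs goes with in skin without Cre. There, 18 genes were past 2-fold higher and 189 lower in 2683 pairs at 1 day (0.194% and 2.04%, together 2.24% of 9258), and 20 higher and 98 lower in 818 pairs at 1 week (0.269% and 1.32%, together 1.58% of 7448). Col17a1 differed by log2 0.56 and 0.61 in the controls against 1.76 and 2.18 in ablated skin, and Dst by 0.64 and 0.66 against 1.91 and 2.13. The basal list had a median of 0.62 and 0.61, with none of 15 past 2-fold. Terminal differentiation genes were lower in the controls too, with 18 of 21 past 2-fold at 1 day (median -1.82) and 6 of 13 at 1 week (median -0.98). Sebaceous gland genes were lower as well, with 5 of 8 past 2-fold at 1 day and 7 of 8 at 1 week. At 1 week 5 of 6 fibroblast genes were past 2-fold lower. The highest named genes of that contrast at 1 week were haemoglobin genes, led by Hbb-bt (24.2 against 0.226 CPM). Bulge genes, in contrast, had medians of 0.04 and 0.35 in the controls, with none past 2-fold. The control pairs were shallower, with median depths of 4585 and 4733 UMIs against 6849 and 10402 in the ablated pairs. The difference between ablated and control contrasts was not tested, as each rests on 1 library.

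Levels were then followed across Trp63 classes of 0, 1, 2, 3 to 4 and 5 or more UMIs in barcodes of 5000 to under 10000 UMIs, which holds depth roughly level. In ablated skin at 1 day Col17a1 was at 178, 289.8, 399, 522 and 701 CPM across these classes, each above the one before. At 1 week it was at 224, 433, 619.7, 728 and 898. The control levels of Col17a1 ran from 696 at no Trp63 UMI to 1082 at 5 or more at 1 day, and from 890.3 to 1453 at 1 week. The ablated barcodes with most Trp63 thus reached about the control level of barcodes with none. Krt15 ran from 918 to 2016 at 1 day and from 2993 to 5666 at 1 week, where the controls held 5997 already at no Trp63 UMI. Of the keratins in the rule, Krt5 ran from 927 to 1968 and from 3019.7 to 8456, and its partner Krt14 from 4750.2 to 3445 and from 7789.8 to 7163, whereas control Krt14 ran from 6365 to 7640.4 and from 8329 to 12239.6. Krt16 ran the other way, from 3043 to 1281 and from 1478 to 433, while control values lay in the ranges 735 to 887 and 669 to 953. Krt8 was at 713, 655, 489, 415 and 204 at 1 day, but at 423, 168, 64.1, 17.6 and 168 at 1 week, where the last class of 109 barcodes lay above the 2 classes before it. Slpi, at 329 to 92.5 at 1 day, went from 90.7 to 2.44 at 1 week with a higher value of 109 at 1 Trp63 UMI.

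**Figure D5:**
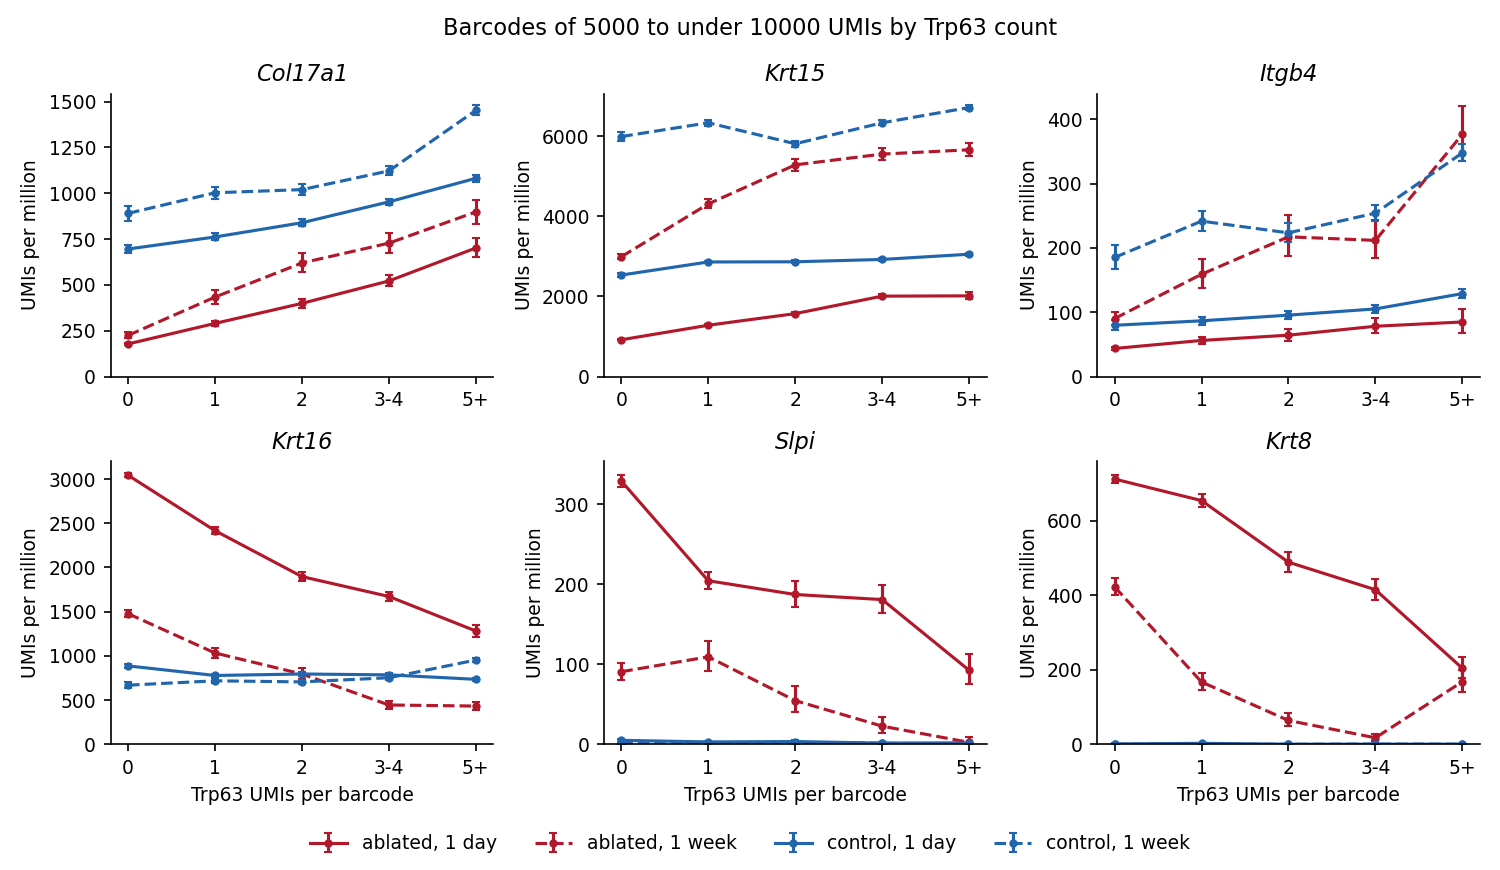
Levels of 6 genes (CPM, with 95% Poisson intervals for counting error) by Trp63 UMIs in barcodes of 5000 to under 10000 UMIs, in ablated (red) and control (blue) libraries at 1 day (solid) and 1 week (dashed). Col17a1 in ablated skin climbs from 178 to 701 at 1 day and from 224 to 898 at 1 week; Krt16 goes down from 3043 to 1281 and from 1478 to 433.

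At the threshold itself, barcodes with exactly 2 Trp63 UMIs, which the rule leaves out, were set beside those with exactly 3. At 1 day, in 1118 and 547 barcodes, Col17a1 was at 384 and 457, Krt15 at 1568 and 1901, Krt8 at 424 and 347, Krt10 at 4924 and 5058 and Lor at 539 and 302. At 1 week, in 356 and 210 barcodes, Col17a1 was at 399 and 407, Krt15 at 3445 and 3105, Krt8 at 353 and 339.7, Krt16 at 2124 and 2335, Krt10 at 1184 and 1659 and Lor at 367 and 621. These sets were not matched for depth, with medians of 6658 and 8750 UMIs at 1 week. At 1 day Krt10, Krt79 (624 and 556) and Mki67 (56.2 and 50.8) were among the genes that differed in the direction opposite to that of the whole contrast. At 1 week Col17a1 and Krt8 were close across the threshold, while Krt15, Krt16, Krt10 and Lor also ran opposite to the whole contrast. Mki67 (219 and 167) and Il18 (18.0 and 27.7) did so too.

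The second comparison set the members against depth-matched control barcodes that also had at least 3 Trp63 UMIs, which asks how keratinocytes of ablated skin with Trp63 transcripts compare with control ones that have them. Krt8, Slpi, wound keratins and several envelope and inflammatory genes were higher in the members, Col17a1 and Krt15 were lower, and Igfbp3 at both times and 6 of 13 spinous genes at 1 week were past 2-fold lower. In 1243 pairs at 1 day 232 genes were past 2-fold higher and 80 lower, 3.49% of 8951 (2.59% higher and 0.894% lower). In 731 pairs at 1 week 448 were higher and 263 lower, 7.28% of 9763 (4.59% higher and 2.69% lower). With TMM factors, which shift the median of all genes by -0.09 and -0.10, 63.8% instead of 74.4% of them were higher at 1 day, and 53.5% instead of 63% at 1 week. Trp63 itself was at 499.7 CPM in members and 608 in control barcodes at 1 day (log2 -0.28). Both sets were chosen by their Trp63 UMIs, so this value describes the choice and is not a finding.

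Genes that are high in ablated skin were far above control in the members. Of the 10 measured at 1 day, 7 were past 2-fold higher and none lower (median 2.32, over all genes 0.06), and of 11 at 1 week, 9 were higher and none lower (3.93, over all genes 0.11). The list was set with earlier results of these data known. Some of its genes also reached the minimum of UMIs through the members, such as Slpi at 1 day (2113 against 18 UMIs) and Fabp7 at 1 week (177 against 1). These counts and medians are therefore no independent evidence. Krt8 stood at 283 CPM in members and 0.451 in control barcodes at 1 day (log2 9.29, 8.07 to 10.92), and at 249 and 4.36 at 1 week. Krt18 stood at 30.7 against 1.17 and at 46.0 against 0.693, and Slpi at 190.4 against 1.62 and at 78.1 against 21.3. Il18 was at 13.2 against 2.70 and at 13.6 against 6.14, and Tslp at 105 against 20.5 and at 183 against 11.9. The immune barcodes of the control library had no Krt8 UMI, whereas those of the ablated library at 1 day held 132 CPM, and how much of the members' Krt8 is free RNA was not tested.

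Krt8 UMIs were unevenly spread over the members, and a barcode with few does not show a cell without the transcript. At 1 day 22.8% of members had at least 3 Krt8 UMIs, against 46.6% of matched Trp63-zero barcodes and 0 of 1243 matched control barcodes (up to 0.296%), and with barcodes thinned to 3000 UMIs the first 2 shares were 12.7% and 27.8%. At 1 week the shares were 8.93% of members and 28.0% of Trp63-zero barcodes, or 5.55% and 15.2% thinned, against 2 of 731 control barcodes (0.274%). In thinned immune barcodes of the ablated libraries 1 of 40 at 1 day and 0 of 49 at 1 week (up to 7.25%) reached 3 Krt8 UMIs. Depth mattered more at 1 week: members under 10000 UMIs held 73.1 CPM of Krt8 and no UMI was counted in their control partners, while deeper members held 298 against 5.61. At 1 day the levels were 321 in shallower and 253 in deeper members.

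All 4 wound keratins were past 2-fold above control at 1 week, and 3 of the 4 at 1 day. Krt6b, a close copy of Krt6a, was at 106 against 7.75 at 1 day and at 542 against 0.495 at 1 week. At 1 week it reached the minimum of UMIs through the members (5613 against 5 UMIs). Krt6a was at 875 against 349 and at 1677 against 141. Krt16 was at 1533 against 729 and at 1501 against 597, but at 1 week the direction differed with depth: under 10000 UMIs members were below control (465 against 808), and at 10000 or more above it (1789.8 against 537). At 1 week 18.7% of members and 21.9% of control barcodes had at least 3 Krt16 UMIs after thinning (34.3% and 44.9% before it), which runs against the summed level, and no order is read from it. Krt17 was at log2 0.83 at 1 day and at 5785 against 2027 at 1 week.

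Of the 15 measured basal and hemidesmosome genes, none was past 2-fold from control in either direction at either time. Their log2 ratios ran from -0.79 to 0.32 at 1 day and from -0.84 to 0.44 at 1 week, with medians of -0.29 and -0.41. Col17a1 stood at 518 CPM against 862 at 1 day (log2 -0.74, -0.78 to -0.69) and at 513 against 919 at 1 week (log2 -0.84, -0.89 to -0.79). Dst was at 387 against 474 and at 538 against 934, and Krt15 at 1821 against 2475 and at 3397 against 5490 (log2 -0.44 and -0.69). Itgb4, at 73.5 against 98.7 and at 232 against 238, was within 0.5 log2 units of control at both times. For Col17a1 the members therefore lay between Trp63-zero and control barcodes, and 69.3% of members against 33.0% of Trp63-zero and 86.1% of control barcodes had at least 1 Col17a1 UMI after thinning at 1 day (unthinned 87.0%, 52.2% and 95.4%). At 1 week the thinned shares were 68.1%, 26.1% and 88.9% (unthinned 87.6%, 39.1% and 97.8%). Of the thinned immune barcodes of the ablated libraries, 3 of 40 and 0 of 49 had a Col17a1 UMI.

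Igfbp3 had the lowest ratio to control at 1 week, at 32.4 CPM in members and 896 in control barcodes (log2 -4.79, -4.95 to -4.63). At 1 day it was at 256 against 653 (log2 -1.35). Runx1, a transcription factor of follicle and wound keratinocytes, was above control, at 160.1 against 93.4 and at 121 against 57.5. Cdkn1a was above control at 1 day (926 against 596) and below it at 1 week (579 against 1053), within 2-fold both times.

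The differentiation lists were divided against control. Of 21 measured terminal differentiation genes 10 were past 2-fold higher and 3 lower at 1 day (median 0.91), and of 20 at 1 week 9 were higher and 2 lower (median 0.93). Some of them reached the minimum of UMIs through the members. Sprr2d had 923 against 56 UMIs at 1 day and 1155 against 7 at 1 week, and Rptn 131 against 1 at 1 week. These counts and medians are therefore no independent evidence. Flg was at 74.4 against 9.37 and at 27.5 against 5.94, while the immune barcodes held 10.2 in ablated and 8.51 in control skin at 1 day, and 331 and 0 at 1 week. The Flg difference at 1 week thus went with the level in the immune barcodes, whose part in it was not tested. Klk7 was at 1769.6 against 208 and at 601 against 116. Ivl, the involucrin of the envelope, was lower at 1 week, at 21.4 against 122. The spinous list had 1 of 13 past 2-fold lower at 1 day and 6 of 13 at 1 week, with none higher. Krt10 was at 4185 against 5965 at 1 day (log2 0.10 in pairs under 10000 UMIs) and at 810.0 against 4234 at 1 week, and Mt4, a metallothionein of differentiating keratinocytes, at 42.2 against 229 and at 12.5 against 85.9.

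Of the bulge list, 4 of 16 genes were past 2-fold above control at 1 day and 5 of 16 at 1 week, with none lower (medians 0.78 and 0.74). Sox9 was at 666 against 318 and at 706 against 329, and Fst at 929 against 546 and at 836 against 507. Cell cycle genes had 0 of 31 past 2-fold at 1 day and 4 of 35 at 1 week, all higher. Mki67 lay close to control at both times (log2 -0.08 and 0.16). Among inflammatory mediators 7 of 19 were past 2-fold higher and 1 lower at each time. Ccl2 was at 218 against 107 and at 251 against 77.1, and the epidermal growth factor family ligand Areg had log2 ratios of 1.98 and 1.14. Of the stress and dissociation list 3 of 19 genes were past 2-fold above control at 1 day (median 0.48) and none at 1 week (median 0.26), with none lower. The 3 were the immediate early genes Btg2, Egr1 and Zfp36. Fos, an immediate early gene also raised by cell dissociation, was at 569 against 203 at 1 day (log2 1.49) and 0.66 on the log2 scale at 1 week, and which digestion each library had is not given.

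Because several bulge genes were higher, the members were also described in 3 strata set by marker UMIs and chosen after the data were seen. Barcodes with at least 2 UMIs of Cd34 and Lhx2 together, both bulge genes, made up 15.8% of the members at 1 day and 33.4% at 1 week, against 8.82% and 12.1% of control barcodes with Trp63. Barcodes with at least 3 Krt79 UMIs and neither bulge gene made up 19.6% and 21.7% (11.7% and 13.0% in the controls). Barcodes with none of the 3 genes made up 36.7% and 27.9% (55.2% and 60.8%). These shares were taken without depth matching, at median depths of 6961 and 10402 UMIs in members against 6718 and 7694 in control barcodes. Of all 14823 ablated keratinocyte barcodes at 1 day, 1178 were bulge-marked, 2473 Krt79-marked and 7296 had none of the 3 genes. At 1 week the counts were 828, 1015 and 838 of 3315. Within the strata, 16.6% of the 1178 bulge-marked ablated barcodes at 1 day were members, 9.87% of the 2473 Krt79-marked and 6.25% of the 7296 unmarked ones. The thinned shares were 4.33%, 2.06% and 2.81%, against 13.9%, 11.7% and 21.4% in the controls. At 1 week the shares were 29.8%, 15.8% and 24.6%, or 10.1%, 3.05% and 6.32% thinned, against 19.8%, 11.4% and 23.9% in the controls. Over the whole ablated libraries 8.39% and 22.3% of keratinocyte barcodes were members. The unthinned Krt79-marked share at 1 week thus lay below that of its library.

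The direction of the differences from Trp63-zero barcodes was the same inside each stratum for Col17a1 and Krt8, while for Ccl2 the bulge-marked barcodes at 1 day lay close together. At 1 day Col17a1 was at 790.2 CPM in members and 396 in Trp63-zero barcodes of the bulge-marked stratum, at 313 and 96.3 in the Krt79-marked one, and at 609 and 146 in the unmarked one. At 1 week the values were 1079 against 504, 243 against 24.8 and 443 against 87.4. Krt8 had log2 ratios of -0.90, -1.20 and -1.29 at 1 day and -0.72, -0.80 and -1.23 at 1 week. Ccl2 at 1 day was at 41.4 against 36.7 in bulge-marked barcodes, but at 311 against 17.6 in Krt79-marked and 203 against 6.25 in unmarked ones. At 1 week the Ccl2 values were 319 against 186, 262 against 5.39 and 127 against 19.6. In the bulge-marked stratum at 1 week Krt16 and Krt10 were not lower in members (log2 0.024 and 0.17), and of 444 genes past 2-fold overall that could be measured there, 110 were past 2-fold in the same direction and 67 had the opposite sign. In the Krt79-marked stratum at 1 week Slpi (234 against 162) and Lor (491 against 256) were higher in members, opposite to the whole contrast. Tslp at 1 week was lower in members in both marked strata (5.91 against 24.3 and 22.7 against 36.6) and higher in unmarked barcodes (634 against 279). In bulge-marked barcodes at 1 week Igfbp3 was at 28.9 against 36.1 in Trp63-zero barcodes, and Flg at 8.16 against 18.0 in control ones, each opposite to the whole contrast. Against control, Krt8 in unmarked barcodes was at 328 CPM in members at 1 day with no UMI in the control sum, and Igfbp3 at 1 week had log2 ratios of -4.38, -4.04 and -4.47 in the 3 strata.

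The 1 day libraries carried sample tags, and the labels do not say what each tag stood for. In the ablated library 57.5% of keratinocyte barcodes had no leading tag. Members were 229 of 2203, 223 of 2272 and 178 of 1818 of the barcodes led by tags 1 to 3, and 613 of 8530 (7.19%) of those with none, so each tag held members. Within the 3 tags the Col17a1 log2 ratio of members over Trp63-zero barcodes was 1.77, 2.09 and 1.53, that of Krt15 1.09, 1.71 and 1.08, and that of Krt8 -0.82, -1.45 and -1.39. Krt18 had ratios of 0.28 (-0.15 to 0.73), -0.64 and -1.07, the first with an interval that includes 0.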

How the data were processed

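Droplet single-cell RNA libraries from skin (4 libraries, 1 per group) were analysed from the deposited matrices. The values are raw UMI counts per gene and barcode, made by the authors with Cell Ranger 5.0.1 against mm10, per the submitters' processing notes, which also name Seurat; the annotation release is not given in the sources used here. The labels do not tie libraries to animals. Library totals ran from 68191870 to 179736563 gene UMIs, and intervals cover counting error only. The members and the 29 gene lists were chosen with earlier results of these data known.

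Barcodes were selected by the rule in the results, paired 1:1 to the nearest depth without replacement (within 10%), and summed. Log2 ratios of CPM were given with exact conditional binomial 95% intervals, shares with Clopper-Pearson intervals and single levels with exact Poisson intervals. Genes with at least 100 UMIs over both sums were counted as past 2-fold at an absolute log2 ratio of 1. No test was possible. Thinning drew 3000 UMIs per barcode without replacement (seed 1). No doublet caller was run; the alternative without the deepest 10% and without barcodes holding other lineages' markers stands in for it. Named genes were the 10 highest and 10 lowest past 2-fold per comparison and the 10 genes most like Trp63. List members past 2-fold or farthest from 0 and a set list of keratinocyte genes were named too. Left out were selection, mitochondrial, ribosomal and unnamed genes, Xist, Tsix and genes of chromosome Y. Examples were taken from the named genes. Other depth, keratin and Trp63 minimums, gene minimums, unmatched sets, TMM scaling, marker strata, a depth split and tags were tried; the last 3 were chosen after seeing the data. The log2 ratios, their intervals and the 2-fold call were tested on simulated counts, and the depth pairing was not. Tools were Python 3.11.15, numpy 2.4.6, scipy 1.17.1, pandas 2.3.3, matplotlib 3.10.9 and, for TMM, R 4.3.3 with edgeR 4.0.16.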

Additional observations from a re-analysis of the deposited data

Results flagged for a closer look

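Il24, a cytokine of the interleukin 10 family, was past 2-fold in opposite directions at the 2 times, the single such gene among 8302 measured at both. At 1 day it was at 13.6 CPM in members and 27.2 in Trp63-zero barcodes (log2 -1.002, -1.30 to -0.70). At 1 week it was at 52.3 and 24.5 (log2 1.09, 0.88 to 1.31). Both values lie close to the 2-fold limit, and the TMM shift of -0.20 takes the 1 week ratio under it. The difference between the times was not tested, and the kits differed between them.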

How the results depend on the processing

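With 1 library in each group, no analysis over replicate pairs was possible within a time, and no replicate could be left out. The member share at 1 day (8.39%) was 12.3% with at least 5000 UMIs, 10.3% with at least 20 keratin UMIs, 6.68% without the deepest 10% and other-lineage barcodes, 2.88% thinned, 15.9% with at least 2 Trp63 UMIs and 2.79% with at least 5. The control share (46.7%) was then 57.9%, 50.3%, 41.7%, 18.6%, 64.1% and 23.9%. At 1 week (22.3%) the share was 27.5% with at least 5000 UMIs, 19.7% without the deepest and other-lineage barcodes, 6.30% thinned, and 33.0% and 11.2% with at least 2 and 5 Trp63 UMIs.

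Genes past 2-fold against Trp63-zero barcodes at 1 day (608) numbered 1116 and 286 with gene minimums of 30 and 300 UMIs, 405 in barcodes with at least 3 bulge-list UMIs, 8 in the 5 pairs under 3 UMIs of both follicle lists, 86, 304 and 275 in the bulge-marked, Krt79-marked and unmarked strata, and 279 and 228 in tags 1 and 3. Against control at 1 day (312) they numbered 529 unmatched, 628 and 168 with the gene minimums, 13 under 3 UMIs of both follicle lists, and 113 and 145 in the bulge-marked and Krt79-marked strata. At 1 week against Trp63-zero barcodes (1228) they numbered 674 without the deepest and other-lineage barcodes, 1844 and 720 with the gene minimums, and 172 and 772 in the bulge-marked and unmarked strata. Against control at 1 week (711) they numbered 1189 unmatched, 1223 and 373 with the gene minimums, and 251 and 221 in the bulge-marked and Krt79-marked strata. The minimums change how many genes are counted and the strata how many barcodes. The share of measured genes past 2-fold against Trp63-zero barcodes also differed between strata. For bulge-marked barcodes it was 2.06% (1 day) and 3.46% (1 week), compared with 6.99% and 12.5% in all pairs. Krt79-marked barcodes gave 5.95% and 14.6%, and unmarked ones 4.95% and 11.4%. The Krt79-marked stratum had fewer pairs than the bulge-marked one at 1 week (160 against 194).

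Several single-gene values turned direction. In the bulge-marked stratum these were Ccl2 against control at 1 day (-0.19, otherwise 1.03), and at 1 week Krt16 (0.024, otherwise -1.33), Krt10 (0.17, otherwise -1.20), Igfbp3 (-0.32, otherwise 1.67) and Tslp (-2.04, otherwise 0.45) against Trp63-zero barcodes. Against control at 1 week they were Lor (-0.74, otherwise 1.32) and Flg (-1.14, otherwise 2.21). In the Krt79-marked stratum at 1 week they were Slpi (0.53, otherwise -1.59), Lor (0.94, otherwise -1.71) and Tslp (-0.69) against Trp63-zero barcodes. Against control in that stratum Megf6 turned to -0.62 and -0.08 at 1 day and 1 week (otherwise 0.52 and 0.98), Fst to -0.10 and -0.06 (otherwise 0.77 and 0.72) and Mki67 at 1 day to 0.54 (otherwise -0.08). In unmarked barcodes at 1 day Mki67 turned to -0.02 against Trp63-zero barcodes and Krt10 to 0.08 against control. Against control at 1 week Itgb4 (-0.04) and Krt5 (-0.15) turned to 0.27 and 0.004 in bulge-marked and 0.25 and 0.04 in unmarked barcodes, and Mki67 (0.16) to -0.09 in bulge-marked ones. In tag 1, Krt18 against Trp63-zero barcodes was 0.28, otherwise -0.62. Without the deepest 10% and other-lineage barcodes Krt16 against control at 1 week was -0.99, otherwise 1.33. Under 10000 UMIs, Mki67 against Trp63-zero barcodes turned to -0.10 and -0.55 at 1 day and 1 week (otherwise 0.62 and 1.09), and Tslp at 1 week to -0.14 (otherwise 0.45). Against control, Krt10 at 1 day turned to 0.10 (otherwise -0.51) and at 1 week Krt16 to -0.80 (otherwise 1.33), Itgb4 to 0.07 (otherwise -0.04) and Mki67 to -0.11 (otherwise 0.16). At 10000 or more, Mki67 against control at 1 day turned to 0.21 (otherwise -0.08). The cause was not tested. For 9 genes and 5 list medians recomputed under the alternatives outside the depth split, 510 values stayed within a set range and 327 moved out of it. Another 7 turned direction from an absolute log2 ratio of at least 1. The range was the counting interval for a gene, and the interquartile range of the list's log2 ratios for a median. Turns of smaller ratios are counted among the 510 or the 327. At 1 week no pair was left under 3 UMIs of both follicle lists.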
